A study of Rattus norvegicus with 6 samples.

Results

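Elastic fibres give the aorta its recoil, and the genes that build them were followed in rat aorta after engineered exosomes or saline. The members were the rows of the deposited table whose symbol was Eln, Fbn1, Fbn2, Fbln5, Efemp2, Emilin1, Mfap2, Mfap4, Mfap5 or Ltbp4, which gave 10 of 24005 gene symbols. The exosome group held 3 libraries of aorta from rats with chronic kidney disease given ANCR/E7-EXO by tail vein, 10 mg/kg at intervals of 5 days. The saline group held 3 libraries from such rats that received an equal volume of normal saline over 13 weeks. Animals of both groups had lost most of their kidney mass in a staged subtotal nephrectomy and ate a diet with 1.2% phosphorus, which speeds calcification of the vessel wall. There was no group without kidney disease. The labels name neither strain, sex nor age, nor whether the 3 libraries of a group stand for 3 animals. P-values therefore reflect only how far these libraries vary, which may be technical.

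An elastic fibre has a core of elastin, which smooth muscle cells secrete as soluble tropoelastin, laid onto a scaffold of fibrillin microfibrils. Fibulins, EMILIN-1, microfibril-associated glycoproteins and latent TGF-beta binding proteins guide tropoelastin to the scaffold, and lysyl oxidases then cross-link it. In the aorta most of this matrix is made early in life and turns over slowly, and arterial calcium deposits are known to form along elastic lamellae.

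Values are FPKM, reads per kilobase of gene length and scaled to the reads of a library, so levels of different genes can be set side by side. The implied totals ranged from 28063355 to 44561082 reads or read pairs per library. Markers of smooth muscle, fibroblasts and endothelium were present over the 6 libraries. Acta2 lay between 4584 and 9086 FPKM, Pdgfra between 16.0 and 20.7 FPKM and Pecam1 between 25.3 and 69.1 FPKM. These mark cell types of the vessel wall and do not by themselves identify an aorta. The summed level of 8 smooth muscle markers ranged from 15441 to 22185 FPKM in the exosome libraries and from 13991 to 22373 FPKM in the saline libraries. The sums of 8 macrophage markers did not overlap, at 118.2 to 142.6 FPKM with exosomes and 83.4 to 97.5 FPKM with saline. Those of 8 endothelial markers did not overlap either, at 143.7 to 220.3 FPKM with exosomes and 106.3 to 141.2 FPKM with saline. Exosome 2 held the high end, and exosome 1 and 3, at 144.3 and 143.7 FPKM, lay close above saline 2 at 141.2 FPKM. For every other marker list the group sums overlapped, cartilage, Schwann cell, red cell and lymphocyte among them. Of the endothelial markers 5 were higher and 3, Kdr, Erg and Egfl7, lower with exosomes, and Pecam1 and Vwf had the largest differences in FPKM. Kdr, Erg, Egfl7 and Vwf were named after their values were seen. Sums of 8 adventitial fibroblast markers overlapped, at 2694 to 3197 FPKM with exosomes and 2743 to 3605 FPKM with saline. Saline 2 stood apart with 1111 FPKM of 7 adipocyte markers, where the other 5 libraries held 322.3 to 638.5 FPKM. Saline 1 had 29.4 FPKM of 4 mesothelial markers, where the others held 0.152 to 10.1 FPKM, and the sums of 8 skeletal and cardiac muscle markers overlapped between groups, at 26.0 to 50.4 FPKM with exosomes and 32.9 to 52.0 FPKM with saline. Within that list the cardiac genes Myh7 (5.68 FPKM) and Tnnt2 (8.58 FPKM) stood high in exosome 3 alone, with every other library under 1 FPKM, and were named after their values were seen. In bulk tissue, fewer cells of a type and less RNA per cell cannot be told apart.

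No elastic fibre gene passed the test between exosome and saline aortas. The test was limma on log2(FPKM + 1), with p-values adjusted by the Benjamini-Hochberg method over the 11742 genes that averaged at least 1 FPKM, and it called 1 gene in all, 0.00852% of those tested. That gene was Zbtb16, a transcription factor gene named after its values were seen. Of the 10 members 8 reached that minimum, and Fbn2 and Mfap4 did not. Among the 8 tested, 2 had a positive and 6 a negative log2 difference, with a median of -0.06, where the median of all genes tested was -0.07 and 60.7% of them lay below 0. The members that stood furthest from 0 were Fbn1 and Emilin1, and these were also the only members tested whose groups did not overlap. Both were lower with exosomes, and groups did not overlap in that direction for 11.7% of all genes tested and in either direction for 21.1%. At an unadjusted p under 0.05 the same test listed these 2 members, where 9.24% of all genes tested were listed as lower and 16.0% in either direction.

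**Figure D1:**
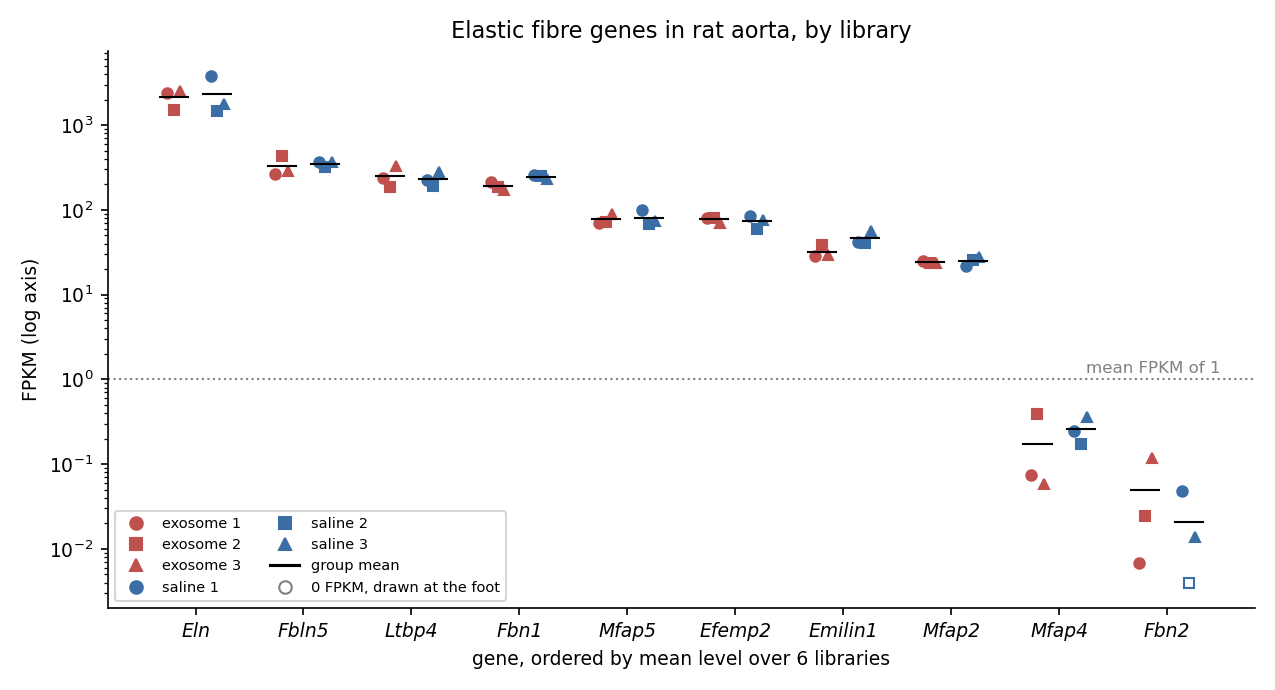
Level of each of the 10 elastic fibre genes in FPKM on a log axis, with 1 point per library (red exosome, blue saline) and a bar at each group mean. Eln stands above all other members in every library, Fbn2 and Mfap4 lie below the dotted line at 1 FPKM, and the red and blue points are fully apart, among the genes above the line, for Fbn1 and Emilin1.

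Levels spanned several orders of magnitude. Eln averaged 2242 FPKM over the 6 libraries, 6.62 times the next member, Fbln5 at 338.5 FPKM, and led in all 6. Ltbp4 at 240.4 FPKM and Fbn1 at 218.2 FPKM followed, in that order in only 3 of 6 libraries, so these neighbours did not differ beyond their spread. Fbn1 lay above Mfap5 in all 6 libraries, whereas Mfap5 at 78.8 FPKM and Efemp2 at 75.1 FPKM changed places, with Mfap5 the higher in 3. Below them came Emilin1 at 39.2 FPKM and Mfap2 at 24.6 FPKM, in this order in every library. A gap of 113.8 times separated Mfap2 from Mfap4 at 0.216 FPKM, and Fbn2 was lowest at 0.0349 FPKM. Mfap4 and Fbn2 overlapped, with Mfap4 the higher in 5 of 6.

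Eln encodes tropoelastin, the monomer of the fibre core. It stood at 2391, 1488 and 2544 FPKM in exosome 1, 2 and 3, against 3789.8, 1471 and 1771 FPKM in saline 1, 2 and 3. The highest and the lowest library were both saline, and all 3 exosome values fell between them. The means were 2141 ± 570.6 FPKM with exosomes and 2344 ± 1261 FPKM with saline (SD, n = 3 each). The log2 difference was -0.04 ± 0.38 (SE), with 0.962 as limma's adjusted p. Its 95% interval ran from -0.93 to 0.85, that is from 0.52 to 1.80 times the saline level, and differences inside that range could not be resolved in these libraries. Saline 1 set much of that width. Without it the log2 difference was 0.37 (adjusted p = 0.462), and its sign also turned without exosome 2, at 0.20 (adjusted p = 0.769), while over all 18 alternative fits the adjusted p ranged from 0.336 to 0.997. Counting error was not the limit, since 149905 to 456644 reads fell on Eln in each library, 0.534% to 1.38% of those on genes, and 11 to 30 genes stood above it.

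Saline 1 was also where 4 of the 8 tested members peaked, Eln, Fbn1, Efemp2 and Mfap5, while 3 of the 8 were lowest in saline 2. The 10 members together summed to 3309.6, 2499 and 3536 FPKM in exosome 1, 2 and 3, against 4888, 2433 and 2878 FPKM in saline 1, 2 and 3. Eln made up 59.5% to 72.2% of that sum in the exosome libraries and 60.5% to 77.5% in the saline libraries. Without Eln the other 9 summed to 918.6, 1011 and 992.3 FPKM with exosomes and to 1098, 962.3 and 1107 FPKM with saline, a narrower spread in which exosome 1 lay below, and exosome 2 and 3 within, the saline range. Smooth muscle markers varied between libraries as well, summing to 22185, 15441 and 20089.7 FPKM in exosome 1, 2 and 3 and to 22373, 14928 and 13991 FPKM in saline 1, 2 and 3. Eln came to 9.64% to 12.7% of that sum with exosomes and to 9.86% to 16.9% with saline, with saline 1 again the highest. Acta2 and Tagln weighed most in that sum, and the 8 markers peaked in different libraries. Acta2 and Des were highest in exosome 1, Lmod1 in exosome 2 and Cnn1 in exosome 3. Myh11, Tagln and Actg2 were highest in saline 1 and Smtn in saline 3. Even so, Acta2, Tagln, Cnn1 and Actg2 each stood higher in exosome 1, exosome 3 and saline 1 than in any other library. Eln divided the same way, at 2391, 2544 and 3789.8 FPKM there against 1488, 1471 and 1771 FPKM. Lmod1 divided the opposite way, and Myh11, Smtn and Des did not divide there. This division crosses the treatment groups and was picked out after the values were seen. Cnn1, Smtn, Lmod1, Des and Actg2 were named after their values were seen. The part of smooth muscle content, or of the mesothelial markers of saline 1, in the level of Eln was not tested.

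**Figure D2:**
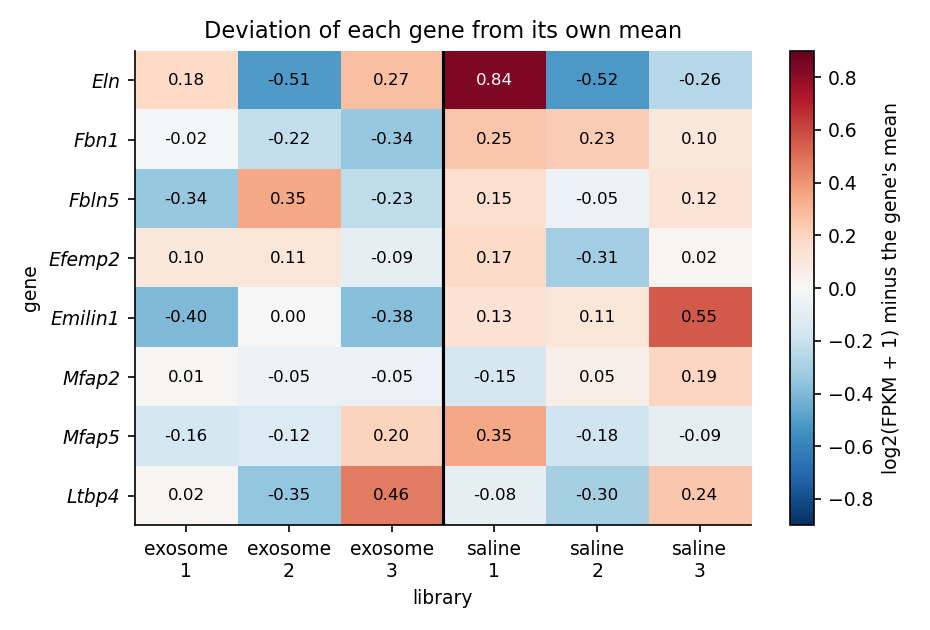
Heat map of the 8 tested genes by library, as the deviation of log2(FPKM + 1) from the gene's own mean over the 6 libraries (red above, blue below). Saline 1 holds the largest value, 0.84 for Eln, the Fbn1 and Emilin1 rows are at or below their mean in all exosome libraries and above it in all saline libraries, and no other row divides by treatment.

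The genes most like Eln across the 6 libraries were looked for among 3363 genes with a mean of at least 20 FPKM, by the root mean square difference of the mean-centred log2 values. Rasl11b, a RAS-like small GTPase gene, and Loxl1, a lysyl oxidase that cross-links elastin, were nearest, both at a distance of 0.22 log2 units. Rexo2, at 0.23, encodes an oligoribonuclease, Col15a1, at 0.23, a basement membrane collagen, and Tinagl1, at 0.24, a matricellular protein. Eln itself departed from its own mean by 0.48 on the same measure. Loxl1 stood at 145.0, 108.8 and 167.4 FPKM in exosome 1, 2 and 3 and at 179.6, 97.2 and 133.5 FPKM in saline 1, 2 and 3, so its highest and lowest libraries were those of Eln. Among the members Mfap5 was nearest to Eln, at 0.33, with 55 other genes nearer, and Emilin1 was furthest, at 0.65. These likenesses rest on 6 libraries that the genes share, and are a description only.

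Fbn1 encodes fibrillin-1, the main protein of adult microfibrils, mutations in which cause Marfan syndrome with dilatation of the aorta in humans. It stood at 212.1, 185.6 and 170.5 FPKM in exosome 1, 2 and 3, against 256.9, 253.5 and 230.7 FPKM in saline 1, 2 and 3. Each exosome library lay below each saline library, with 18.6 FPKM between the nearest pair. The means were 189.4 ± 21.0 FPKM with exosomes and 247.0 ± 14.2 FPKM with saline (SD, n = 3 each), a ratio of 0.77. The log2 difference was -0.39 ± 0.12 (SE), and its 95% interval, not adjusted for the number of genes, ran from -0.66 to -0.11. The unadjusted p was 0.0134 and limma's adjusted p over all genes 0.265, so the difference did not pass, and 19.0% of all genes tested had a log2 difference at least as large in either direction. The separation of the groups was lost after rescaling the libraries to the median of ratios, where the log2 difference was -0.31 (adjusted p = 0.305, and 0.112 to 0.623 over all alternatives). A lncRNA gene overlaps Fbn1 in the RefSeq gene table, as others do Eln and Fbn2, and strand use in counting is not given in the sources used here. The sums of macrophage markers (8 of 8 higher) and endothelial markers (5 of 8 higher) also separated the groups, and their part in the Fbn1 and Emilin1 values was not tested.

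The promoter window of Fbn1, as the only member with separate groups that had an entry in the RefSeq table of build GRCr8, is shown with those of Mfap2 and Mfap5, a pair of related microfibril genes compared further on. Each window runs from 250 bases before the annotated start to 50 after it, 5′ to 3′ on the gene's strand. In the Fbn1 window the 50 bases after that start open with ATG. The annotated start of Fbn1 may thus be a start codon and not a start of transcription. Whether this window holds the Fbn1 promoter was not tested. The windows lie at chr3:133203341-133203640 on the minus strand for Fbn1, chr5:158597478-158597777 on the plus strand for Mfap2 and chr4:157399669-157399968 on the plus strand for Mfap5. Capitals mark matches, on either strand, to any of 5 motifs, and no matches overlapped in these windows. The letters searched were GGGCGG for the GC box and TATAAA for the TATA box. They were CCAAT for the box of that name and CAGAC for the SMAD box, and the AP-1 site was searched as TGANTCA.
Fbn1: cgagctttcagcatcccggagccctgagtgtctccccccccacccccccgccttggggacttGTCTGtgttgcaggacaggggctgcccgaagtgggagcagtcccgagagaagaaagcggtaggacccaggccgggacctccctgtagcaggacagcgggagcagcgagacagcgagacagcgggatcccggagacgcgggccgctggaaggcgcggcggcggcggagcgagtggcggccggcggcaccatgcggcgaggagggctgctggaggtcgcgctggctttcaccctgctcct
Mfap2: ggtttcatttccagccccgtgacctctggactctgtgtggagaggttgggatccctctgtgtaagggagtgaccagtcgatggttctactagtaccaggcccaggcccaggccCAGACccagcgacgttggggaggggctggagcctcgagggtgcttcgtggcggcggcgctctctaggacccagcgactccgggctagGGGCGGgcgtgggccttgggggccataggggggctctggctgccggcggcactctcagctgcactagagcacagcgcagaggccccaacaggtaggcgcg
Mfap5: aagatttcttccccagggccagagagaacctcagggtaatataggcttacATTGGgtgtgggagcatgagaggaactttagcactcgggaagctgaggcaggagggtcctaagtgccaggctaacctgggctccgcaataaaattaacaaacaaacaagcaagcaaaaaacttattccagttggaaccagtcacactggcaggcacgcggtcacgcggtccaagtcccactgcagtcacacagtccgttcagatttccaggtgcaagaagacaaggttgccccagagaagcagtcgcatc
Fbn1 held 1 SMAD box, Mfap2 held 1 SMAD box and 1 GC box, and Mfap5 held 1 CCAAT box. G and C made up 70.7% of the Fbn1 window, 67.0% of that of Mfap2 and 51.7% of that of Mfap5. Of 33469 promoter windows of this length, 50.1% held a SMAD box, 33.1% a GC box, 37.5% a CCAAT box, 14.2% a TATA box and 7.33% an AP-1 site. Of the 7 members with an entry, 4 held a SMAD box, 4 a GC box and 4 a CCAAT box, and 0 held a TATA box or an AP-1 site. A match is a string of letters in the window and not a shown binding site.

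Emilin1 encodes EMILIN-1, a glycoprotein at the interface of elastin and microfibrils, which in mice also restrains the processing of the TGF-beta precursor. It stood at 28.6, 38.1 and 29.0 FPKM in exosome 1, 2 and 3, against 42.0, 41.1 and 56.3 FPKM in saline 1, 2 and 3. The groups were apart by 3.02 FPKM, the distance from exosome 2 to saline 2, and saline 3 was the highest. The means were 31.9 ± 5.36 FPKM with exosomes and 46.5 ± 8.52 FPKM with saline (SD, n = 3 each), a ratio of 0.69. Its log2 difference of -0.53 ± 0.17 (SE) had a 95% interval from -0.91 to -0.14. The unadjusted p was 0.0146 and limma's adjusted p 0.269, and 9.28% of all genes tested had a log2 difference at least as large in either direction. With library weights Emilin1 passed (log2 difference -0.69, adjusted p = 0.0143), in a fit where the weights did not converge and 3268 genes passed, whereas its adjusted p ranged from 0.0843 to 0.613 in the other alternatives.

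**Figure D3:**
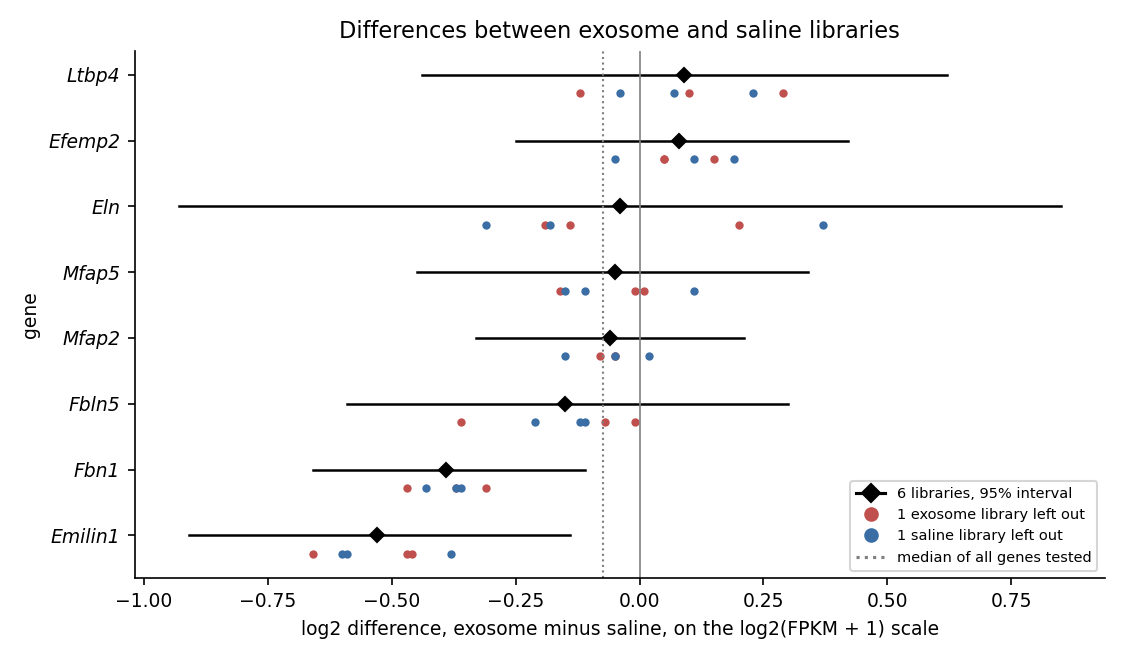
Log2 difference, exosome minus saline, of the 8 tested genes on the log2(FPKM + 1) scale (diamonds) with limma's unadjusted 95% interval (line), and below each line the values with 1 library left out (red, an exosome library, blue, a saline library). Intervals of Fbn1 and Emilin1 lie wholly below 0 and their 6 values with a library left out stay negative, whereas those of Eln run from -0.31 to 0.37.

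The other fibrillin, Fbn2, is used mainly in development. It was close to absent, with 2, 6 and 45 reads in exosome 1, 2 and 3, against 14, 0 and 4 reads in saline 1, 2 and 3, over a feature of 8660 bp. These gave 0.00672, 0.0247 and 0.117 FPKM with exosomes and 0.0481, 0 and 0.0136 FPKM with saline, and the 0 in saline 2 allows up to 0.0117 FPKM, counting error only. Exosome 3 was the highest, and the groups overlapped. Per length, Fbn2 came to at most 0.0684% of Fbn1 in any library.

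The fibulins showed no separation by treatment. Fbln5 encodes fibulin-5, which binds tropoelastin and carries it to microfibrils. It stood at 263.8, 426.5 and 284.0 FPKM in exosome 1, 2 and 3, against 370.2, 322.4 and 364.1 FPKM in saline 1, 2 and 3. Exosome 2 held the highest value and exosome 1 and 3 the lowest, so the exosome libraries lay on both sides of the saline ones. The 95% interval of its log2 difference, -0.15 ± 0.19 (SE), ran from -0.59 to 0.30 (adjusted p = 0.70 in limma). Efemp2 encodes fibulin-4, which brings lysyl oxidase to tropoelastin. It stood at 80.3, 80.5 and 70.3 FPKM in exosome 1, 2 and 3, against 84.0, 59.9 and 75.6 FPKM in saline 1, 2 and 3, and the saline values enclosed the exosome values. Its log2 difference was 0.08 ± 0.14 (SE), with a 95% interval from -0.25 to 0.42 and an adjusted p of 0.771 in limma. Without saline 2, its lowest library, the log2 difference was -0.05 (adjusted p = 0.872, and 0.231 to 0.922 over all alternatives).

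The microfibril-associated glycoproteins attach to fibrillin. Mfap2, which encodes MAGP-1, stood at 24.7, 23.6 and 23.7 FPKM in exosome 1, 2 and 3, against 22.0, 25.5 and 28.1 FPKM in saline 1, 2 and 3. Its highest library was 1.27 times its lowest, the least of the 8 tested members, and the saline values enclosed the exosome values. The 95% interval of its log2 difference, -0.33 to 0.21, was the narrowest of the 8, and amounts to 0.80 to 1.15 times the saline level (log2 difference -0.06, adjusted p = 0.798 in limma). A protein-coding gene, Atp13a2, overlaps Mfap2 in the RefSeq table. Mfap5, which encodes MAGP-2, stood at 69.8, 71.7 and 89.7 FPKM in exosome 1, 2 and 3, against 99.4, 68.9 and 73.3 FPKM in saline 1, 2 and 3. The groups overlapped, with saline 1 the highest and saline 2 the lowest, and the log2 difference was -0.05 ± 0.17 (SE, adjusted p = 0.887 in limma).

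Mfap4 encodes a fibrinogen-related protein known from human and mouse elastic fibres. It had 4, 17 and 4 reads in exosome 1, 2 and 3, against 13, 8 and 19 reads in saline 1, 2 and 3, on a feature of 1561 bp. These gave 0.0745, 0.388 and 0.0575 FPKM with exosomes and 0.248, 0.173 and 0.358 FPKM with saline. The groups overlapped, and so few reads leave a large counting error.

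Ltbp4 encodes a latent TGF-beta binding protein that also helps fibulin-5 and elastin assemble. It stood at 239.2, 184.9 and 324.8 FPKM in exosome 1, 2 and 3, against 223.5, 190.8 and 279.1 FPKM in saline 1, 2 and 3. The exosome libraries held both the highest and the lowest value. The log2 difference was 0.09 ± 0.23 (SE), with a 95% interval from -0.44 to 0.62 and an adjusted p of 0.853 in limma. Its sign turned without exosome 3, at -0.12 (adjusted p = 0.879), and without saline 2, at -0.04 (adjusted p = 0.952), and the adjusted p ranged from 0.405 to 0.952 over all alternatives.

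Ratios of members within a library do not depend on how the library was scaled. The ratio of Eln to Fbn1, core to scaffold, was 11.3, 8.02 and 14.9 in exosome 1, 2 and 3, against 14.8, 5.80 and 7.68 in saline 1, 2 and 3. The groups overlapped, and the log2 difference of 0.35 had an exact two-sided permutation p of 0.40, or 0.60 adjusted over 3 ratios. That of Mfap5 to Mfap2 was 2.83, 3.03 and 3.78 with exosomes and 4.51, 2.70 and 2.61 with saline, with a log2 difference of 0.01 (exact permutation p = 1.0). That of Fbln5 to Efemp2 was 3.29, 5.30 and 4.04 with exosomes and 4.41, 5.38 and 4.81 with saline, with a log2 difference of -0.23 (exact permutation p = 0.40). With 3 libraries against 3 the smallest p that this test can give is 0.1, so none could pass. MAGP-2 transcripts outnumbered those of MAGP-1, per length, in all 6 libraries, and fibulin-5 transcripts those of fibulin-4.

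Other genes of the pathway were taken as 3 lists with 41 members, all present in the table, and none of the 35 that reached 1 FPKM passed limma's adjusted threshold. In these lists 18 log2 differences were positive and 17 negative, with a median of 0.01, and 4, namely Adamts10, Fbln2, Mmrn2 and Ctss, had an unadjusted p under 0.05, 11.4% against 16.0% of all genes tested. The groups did not overlap for 2 higher genes, Ctss and Ctsl, and 3 lower genes, Adamts10, Glb1 and Timp2. These were 5 of the 35, or 14.3%, against 21.1% of all genes tested. With so few genes, no result is read from either share. Ctsl and Timp2 were named after their values were seen. Among the 16 tested genes of fibre-associated proteins, 8 were higher and 8 lower. Adamts10, whose product promotes fibrillin-1 microfibril assembly, had the smallest p of the 35. It stood at 42.6, 53.7 and 37.4 FPKM in exosome 1, 2 and 3, against 67.9, 59.4 and 82.0 FPKM in saline 1, 2 and 3, which made a log2 difference of -0.64 ± 0.17 (SE, adjusted p = 0.255 in limma). Its groups did not overlap, with exosomes lower, as for 11.7% of all genes tested. Fbln2, which encodes fibulin-2, averaged 31.9 ± 8.13 FPKM with exosomes and 21.0 ± 2.36 FPKM with saline (adjusted p = 0.285 in limma), with exosome 1 inside the saline range. Mmrn2, which encodes an EMILIN-family protein of endothelial cells, averaged 19.9 ± 6.19 FPKM with exosomes and 12.4 ± 2.26 FPKM with saline (adjusted p = 0.288 in limma). Exosome 2 was its highest library, at 26.7 FPKM, and also held the highest sum of endothelial markers.

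Of 8 genes for cross-linking and tropoelastin handling, 3 had a positive and 5 a negative log2 difference and 0 had an unadjusted p under 0.05. Lox, the principal lysyl oxidase of the vessel wall, stood at 308.8, 244.0 and 282.9 FPKM in exosome 1, 2 and 3, against 384.5, 265.8 and 217.8 FPKM in saline 1, 2 and 3. The saline values enclosed those with exosomes, and the log2 difference was -0.02 ± 0.21 (SE, adjusted p = 0.967 in limma). Loxl1 had a log2 difference of 0.06 ± 0.25 (SE, adjusted p = 0.912). Glb1, the beta-galactosidase gene that also encodes the elastin-binding protein, had separate groups, averaging 11.0 ± 0.411 FPKM with exosomes and 12.4 ± 0.590 FPKM with saline, with an adjusted p of 0.452 in limma. Loxl3 (log2 difference -0.15) and Loxl2 (-0.32), further members of the lysyl oxidase family, followed with groups that overlapped.

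Of 11 tested genes of proteases that can degrade elastin, of an enzyme that activates them and of inhibitors, 7 had a positive and 4 a negative log2 difference. Ctss, which encodes cathepsin S, an elastase abundant in macrophages, stood at 22.8, 24.8 and 21.8 FPKM in exosome 1, 2 and 3, against 15.9, 20.9 and 17.3 FPKM in saline 1, 2 and 3. The groups were apart, and the log2 difference was 0.35 ± 0.13 (SE, adjusted p = 0.287 in limma). All 8 macrophage markers were higher on average with exosomes and 0 passed, and their part in the Ctss value was not tested. Mmp2, a gelatinase that also cleaves elastin, averaged 392.2 ± 17.8 FPKM with exosomes and 463.2 ± 64.1 FPKM with saline (adjusted p = 0.406 in limma). Mmp14, which activates it, averaged 98.9 ± 15.9 FPKM with exosomes and 113.1 ± 6.89 FPKM with saline (adjusted p = 0.453 in limma). Mmp7, Mmp9, Mmp12 and Elane lay below the minimum and outside the test. Mmp12, the macrophage elastase, named here after its values were seen, stood at 0.888, 1.57 and 0.849 FPKM in exosome 1, 2 and 3, against 0.471, 0.705 and 0.714 FPKM in saline 1, 2 and 3. Each exosome value lay above each saline value, as groups did not overlap in either direction for 21.1% of all genes tested. That share does not cover genes below the minimum, and none was computed for them, so nothing is drawn from this separation.

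**Figure D4:**
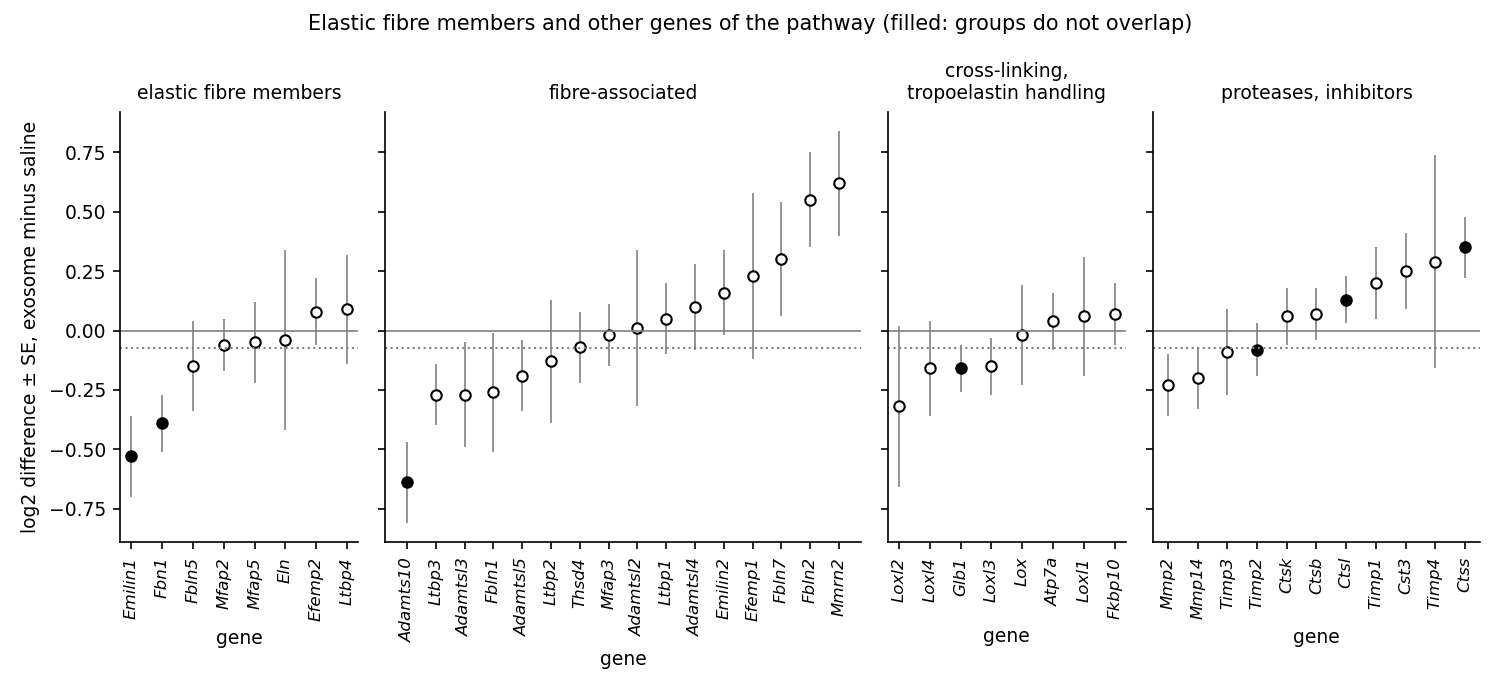
Log2 difference ± SE, exosome minus saline, of the 8 tested elastic fibre members and of 16, 8 and 11 tested genes of the 3 pathway lists, ordered within each panel. Filled circles mark genes whose groups do not overlap, the dotted line is the median of all genes tested, and Adamts10, Emilin1 and Fbn1 lie lowest among the filled circles.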

How the data were processed

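RNA-seq of 6 rat aorta libraries was analysed, 3 per group by the treatment in the labels. Per the labels' protocols, libraries were made with a SMARTER mRNA-seq kit. The authors deposited FPKM for 24005 symbols. The submitters' processing notes name DESeq2 1.28.1 without saying for what. For the aligner, the counting, the strand setting, the build and the annotation the entry is the same: not given in the sources used here. FPKM values were whole multiples of a step per gene. From these steps, reads, feature lengths and library totals were computed for 18430 genes, 100.0% of those above 0, within 0.02 reads. The length taken was the smallest that met this limit. Genes above 0 in few libraries can meet it with a wrong length, so the 100.0% is no check of them.

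Limma 3.58.1 in R 4.3.3 was run on log2(FPKM + 1) with an intensity trend, two-sided, for genes averaging at least 1 FPKM, with Benjamini-Hochberg adjustment and a threshold of 0.05. Log2 differences understate low genes. Ratios had exact permutation tests. The fit was also run on simulated libraries with the same spread for every gene, unlike these libraries. Its outcome is not reported here and no result rests on it. Alternatives were pseudocounts of 0.1 and 0.01, no minimum or 5 FPKM, 3 rescalings, other moderation, library weights, a replicate block, voom on recovered reads, other thresholds and each library left out. By a rule set beforehand the text names all 10 members, Lox, Loxl1, the 3 listed genes of smallest p per pathway list that reach the minimum, the 5 genes most like Eln, and markers from those fixed for the tissue check. Genes outside that rule include those said to be named after their values were seen. Members and lists were chosen with earlier results of these data known. Motif counts and figures used Python 3.11.15.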

Additional observations from a re-analysis of the deposited data

How the results depend on the processing

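In all 18 alternative fits the log2 differences of Fbn1 (-0.47 to -0.23), Emilin1 (-0.69 to -0.38) and Fbln5 (-0.37 to -0.01) kept their sign. With library weights 3268 genes passed in place of 1, with 1 elastic fibre member (Emilin1) and 5 other pathway genes among them, and Eln turned to 0.32. That estimate stopped before converging and gave exosome 1 a weight of 9.20 against 0.30 to 1.14 for the others. In the other 17 fits 0 members and 0 other pathway genes passed. Quantile normalization called 2 genes. At an unadjusted p of 0.05, 2 members were listed. Rescaling to the median of ratios, which moved the median of all genes to -0.006, turned Eln (0.03), Mfap2 (0.01) and Mfap5 (0.02), and left 1 member, Emilin1, with separate groups.

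With 1 library left out, 0 to 9 genes passed, and 0 were called without exosome 1 or without saline 3, 9 without saline 1, 4 without exosome 2 and 2 without exosome 3. The median of the members ranged from -0.18 (without saline 2) to -0.02. Leave-one-out log2 differences ranged from -0.31 to 0.37 for Eln, -0.05 to 0.19 for Efemp2, -0.15 to 0.02 for Mfap2, -0.16 to 0.11 for Mfap5 and -0.12 to 0.29 for Ltbp4. Those of the ratios ranged from -0.13 to 0.26 for Mfap5 to Mfap2, from 0.05 to 0.73 for Eln to Fbn1 and from -0.41 to -0.07 for Fbln5 to Efemp2. The ratio of Fbn2 to Fbn1 had no log2 value because of the 0 in saline 2. A replicate block called 1 gene and 0 members, with log2 differences of -0.39 for Fbn1 and -0.53 for Emilin1. Deviations of same-numbered libraries correlated at 0.068, 0.096 and -0.165, so the numbers were not taken as pairs, and not every library was most like its own number. The spread between libraries, not depth, limits the members other than Fbn2, Mfap4 and Mfap2. Mfap2 had 686 to 1094 reads per library. Its SD was 2.44% of the mean with exosomes and 12.0% with saline, so counting error may be part of its spread.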
